A study of Mus musculus with 12 samples.

Results

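Messenger RNA of mouse embryonic fibroblasts (MEF) labelled as overexpressing casein kinase 1α (CK1α) was compared with that of MEF labelled as the overexpression control. The comparison was set by the labels alone: 2 libraries labelled CK1a_OV and 2 labelled OV_control, 4 of the 12 libraries of the series, described across all 13958 genes with enough counts to be tested. Both groups are MEF of C57BL/6J genotype, polyA+ RNA was made into cDNA libraries, and the groups differ by label only in the treatment, CK1a overexpression or overexpression control. The labels give no vector, promoter, species of the CK1α sequence, dose, time, passage or clone, and they do not say whether the replicates were separate cultures, so the spread behind each p-value may be only technical. The rest of the series holds a CK1α knockdown by siRNA in MEF with its control, and a compound comparison that was not used here. In these bulk samples, fewer cells of a type and less RNA per cell cannot be told apart.

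CK1α, encoded by Csnk1a1, is a serine/threonine kinase that primes β-catenin for degradation in the Wnt pathway and also acts on p53 control and NF-κB signalling. The series concerns its relation to cGAS-STING signalling, in which the sensor cGAS detects cytosolic DNA, the adaptor STING recruits the kinase TBK1, and the factor IRF3 then raises interferon and the genes that interferon induces. Fibroblasts are known for the collagen-rich matrix and the contractile actin cytoskeleton that they build.

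Csnk1a1 transcripts were not higher in the libraries labelled CK1a_OV, which had 229 and 243 CPM against 239 and 236 CPM in the controls (log2 fold change −0.01 ± 0.04, adjusted p = 0.901). The groups overlapped, so the direction of every change below rests on the labels. CPM here are counts scaled to a common library size with TMM factors. Summed levels of marker lists and of features below the filter use library totals instead. Log2 fold changes are the CK1a_OV libraries over the OV_control libraries, ± standard error (SE), with n = 2 libraries per group, and adjusted p-values come from edgeR's quasi-likelihood test with Benjamini-Hochberg adjustment over all genes tested. A gene is called higher or lower, or said to have risen or fallen, at an adjusted p under 0.05. Of the other CK1 isoforms, Csnk1d, Csnk1e, Csnk1g1 and Csnk1g2 did not pass. Csnk1g3 (0.18 ± 0.05, adjusted p = 0.0158) rose, but its call was lost without CK1a_OV replicate 2 or OV_control replicate 1 (adjusted p = 0.138 to 0.210).

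The libraries held 16781869 to 17326468 counts, and 20999 to 21785 features had at least 1 count, with the fewer in the CK1a_OV libraries. Of the 15 fibroblast markers, 10 were tested, among them Vim, Col1a1, Col1a2, Col3a1, Pdgfra and Pdgfrb. Thy1, Fap, Dcn, Lum and Postn had at most 7 counts in any library, and Lum had 0 in all 4, so the label of the cells rests on part of the list. The marker list summed to 2539 and 2524 CPM of the library totals in the CK1a_OV libraries and to 2978 and 2978 CPM in the controls, with Vim, Col1a1, Col1a2, Col3a1 and S100a4 called lower and none higher. Of 21 macrophage markers 4 were tested, with summed levels of 23.6 and 22.4 against 21.4 and 23.3 CPM, and the defining marker Adgre1 had 0 counts in every library. Epithelial markers summed to at most 8.66 CPM, endothelial markers to at most 3.64 CPM and blood markers to at most 0.894 CPM.

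The differences between the groups were small. Of the 13958 genes, 807 were called higher (5.78%) and 1056 lower (7.57%). Called changes had a median size of 0.22 on the log2 scale, and 10 genes rose (0.0716%) and 100 fell (0.716%) by at least 2-fold. The groups did not overlap for 3708 genes that were higher (26.6%) and 3746 that were lower (26.8%), and counts of non-overlapping members below are read beside those shares. The call stood with all 4 libraries and in each of the 4 fits that leave 1 library out for 551 genes, of which 179 were higher and 372 lower. Without OV_control replicate 1 the calls numbered 1065 and without OV_control replicate 2 1220, and with DESeq2 they numbered 607 (207 higher, 400 lower). DESeq2 gave no adjusted p to 264 of the 1863 called genes, and its counts below leave such genes out. Genes named below passed in all 4 of those fits unless the library whose omission ended the call is given.

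The calls were unevenly spread over features of the genes. Of the 2361 protein-coding genes in the lowest quintile of GC content, 234 were higher and 81 lower, whereas of the 2353 in the highest quintile 83 were higher and 293 lower. The median of the low-GC quintile was 0.02 and 0.03 above the genes' means over the 4 libraries in the CK1a_OV libraries and −0.03 and −0.02 in the controls, on the log2 scale. With a per-library GC offset, chosen after seeing the data, the split became 78 higher and 150 lower in the low-GC quintile and 124 higher and 212 lower in the high-GC quintile. The quintiles of level also differed: the lowest, with mean levels up to 2.75 CPM, held 81 of the 100 falls of at least 2-fold, and the quintile above 102 CPM held none but 347 rises and 454 falls in all. The 41443 features below the filter summed to 1335 and 1356 CPM of the library totals in the CK1a_OV libraries and to 1533 and 1540 CPM in the controls, and their part in the falls of low genes was not tested. Among 993 long non-coding RNA genes, 11 rose and 39 fell. The part that base composition plays in the calls was not tested beyond this offset. Where a list had at least 3 calls in a direction and the offset moved that count by more than 1.5 times, the count with the offset is given beside it.

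**Figure D1:**
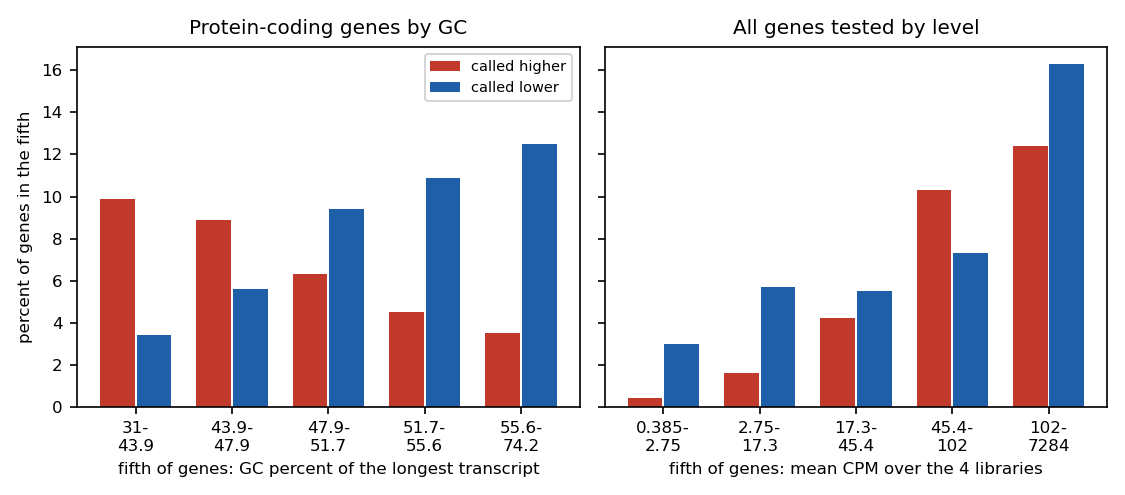
Percent of genes called higher (red bars) and lower (blue bars) in the CK1a_OV libraries, for protein-coding genes in quintiles of GC percent (left) and all genes tested in quintiles of mean CPM (right). Rises outnumber falls in the lowest GC quintile (234 against 81) and falls outnumber rises in the highest (293 against 83), while both are rarest in the lowest quintile of level.

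Falls with small adjusted p-values included those of Anxa8, Ecm1, Ahnak, Actb and Vim. Genes picked by adjusted p-value, here and for the rises, came only from called genes whose groups did not overlap. Their lack of overlap is thus a condition of the choice and no further result. Anxa8 (annexin A8, a calcium-dependent membrane-binding protein; ENSMUSG00000021950, mm10 chromosome 14, 34085981 to 34100571) had 55.7 and 59.1 CPM in the CK1a_OV libraries and 111 and 108 CPM in the controls. Both CK1a_OV libraries lay far below both controls, and the fall was −0.93 ± 0.05 (SE; adjusted p = 2.07e-19). Ahnak, a very large scaffold protein under the plasma membrane, had 1038 and 1022 against 1332 and 1318 CPM, a change of −0.36 ± 0.02 (SE; adjusted p = 6.21e-18). Ecm1, a secreted protein of the extracellular matrix, fell from 1166 and 1190.4 CPM in the controls to 895 and 908 CPM (−0.39 ± 0.02, adjusted p = 2.53e-18). Cytoplasmic β-actin, Actb, had 1950.5 and 1932 against 2390.0 and 2418 CPM, with no overlap (−0.31 ± 0.02). Its paralogue Actg1 moved alike (−0.27 ± 0.02), as did Acta2, the smooth muscle actin of activated fibroblasts, at 312 and 321 against 429 and 437 CPM (−0.45 ± 0.03). Vimentin, Vim, the main intermediate filament protein of fibroblasts, had 1602 and 1579 against 1979.9 and 1977 CPM (−0.32 ± 0.02, adjusted p = 3.06e-17). Actb, Acta2 and Vim were thus lower in both libraries than in either control. Marcksl1, an actin-binding kinase substrate, fell by 0.47 ± 0.04, and Lars2, the mitochondrial leucyl-tRNA synthetase, had 282 and 282 against 394 and 387 CPM (−0.47 ± 0.03).

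Rises with small adjusted p-values included those of Egr1, Scd2 and Cers2, and that of Dynlt1c, whose copies are described with the dynein genes. Egr1, a transcription factor induced by growth factor signalling, had 177 and 179.9 CPM in the CK1a_OV libraries and 126 and 123 CPM in the controls (0.52 ± 0.04, adjusted p = 2.19e-14). Scd2, a stearoyl-CoA desaturase, had 1074 and 1069.8 against 917 and 919 CPM (0.22 ± 0.02, adjusted p = 3.34e-10), again with no overlap. Cers2, which makes ceramides with very long acyl chains, had 150.4 and 151 against 112 and 119 CPM (0.39 ± 0.04). Other rises were those of Eif1 (0.22 ± 0.03), a factor for start codon selection, Tnfrsf12a (0.24 ± 0.03), the receptor for the cytokine TWEAK, and Smc4 (0.21 ± 0.03), a condensin subunit. Of the rises named here other than that of Dynlt1c, that of Egr1 was above 0.5 on the log2 scale and the others were below it.

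**Figure D2:**
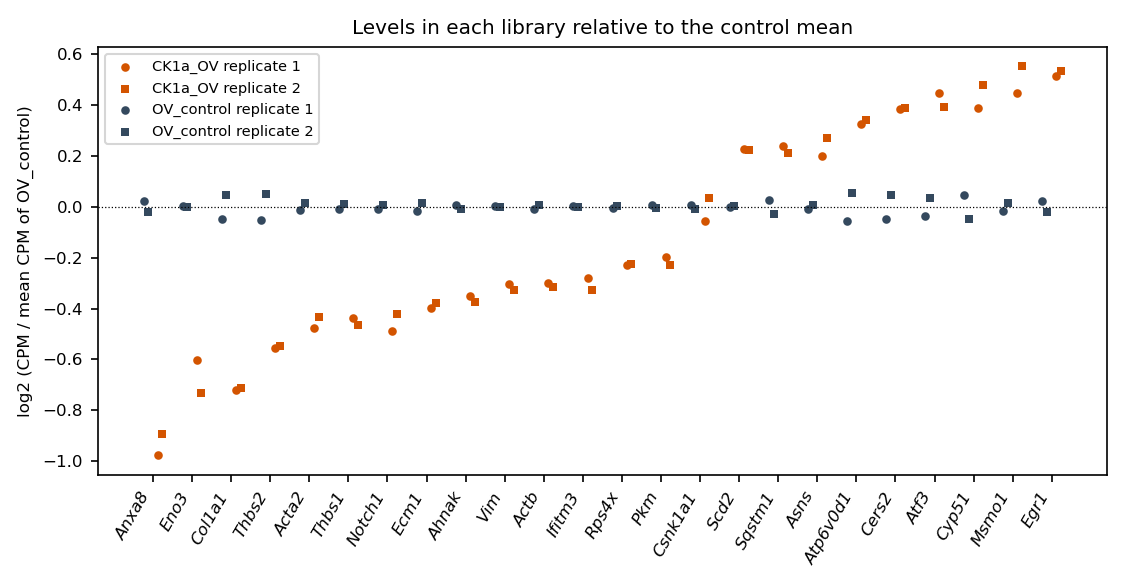
Levels of 24 genes in each of the 4 libraries, as log2 of CPM over the mean CPM of the 2 OV_control libraries, 1 point per library. Except for Csnk1a1, both CK1a_OV points lie on the same side of both control points for each gene shown, from Anxa8 at the lower end to Egr1 at the upper. Many of these genes were picked from those whose groups did not overlap.

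Annexins and S100 proteins, calcium-binding partners at the membrane, were looked at after the value of Anxa8 was seen. Of 10 S100 genes tested, 6 fell (2 with DESeq2) and none rose (0 at an unadjusted p under 0.05 and 0 with DESeq2), and in 8 both CK1a_OV libraries lay below both controls, with a median log2 fold change of −0.20. S100a10, which forms a tetramer with annexin A2, had 376 and 367 against 435 and 441 CPM (−0.24 ± 0.03, adjusted p = 4.3e-08). Its partner Anxa2 had 1701 and 1677 against 1794 and 1833 CPM (−0.10 ± 0.02), and Anxa1, a mediator of the resolution of inflammation, had 868 and 845 against 965 and 967 CPM (−0.17 ± 0.02). All 3 were lower in both libraries, by amounts near or below 0.24 on the log2 scale. Of 10 annexin genes 4 fell, Anxa1, Anxa2, Anxa6 and Anxa8. Anxa7 and Anxa11 rose (0.13 ± 0.04 and 0.35 ± 0.09), so the family did not move one way. Anxa7 lost its call without any 1 of the 4 libraries (adjusted p = 0.050 to 0.213), and Anxa11 without CK1a_OV replicate 2 or OV_control replicate 1 (adjusted p = 0.150 to 0.229). S100a11 fell (−0.14 ± 0.03) but not without OV_control replicate 2 (adjusted p = 0.158).

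Genes of the extracellular matrix fell in several lists. Of 27 collagen genes tested, 12 fell and none rose (0 at an unadjusted p under 0.05 and 0 with DESeq2), with a median of −0.25 against 0.00 over all genes. Fibrillar chains led them: Col5a2, the chain that nucleates type I fibrils, had 804 and 796 against 940.0 and 933 CPM (−0.23 ± 0.02, adjusted p = 5.36e-10), and Col1a2 had 278 and 271 against 337 and 337 CPM (−0.30 ± 0.03). Col3a1 (−0.69 ± 0.09) and Col1a1 (−0.72 ± 0.07) fell too, and no fibrillar chain named here overlapped between groups. Of 18 matricellular genes, 6 fell, among them Thbs1 (−0.45 ± 0.03) and Thbs2 (−0.55 ± 0.04), thrombospondins that bind collagen and latent TGF-β, and Ccn5 (−0.48 ± 0.08). Ccn1, an adhesion protein of the same CCN family, rose instead, with 737 and 731 against 672 and 679 CPM (0.12 ± 0.03, adjusted p = 0.000751). With DESeq2, 7 collagens were called lower.

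Fibres and proteoglycans, basement membrane components and the enzymes that mature collagen also held falls. Fbn1, the fibrillin of elastic microfibrils, had 171 and 177 against 224 and 225 CPM (−0.37 ± 0.04, adjusted p = 1.35e-10) and was among the 12 of 26 members that fell. Sdc4, a heparan sulphate proteoglycan of focal adhesions, was the 1 member that rose (0.14 ± 0.03), though not without OV_control replicate 2 (adjusted p = 0.0593). Of 9 basement membrane genes 5 fell, including Nid2 (−0.36 ± 0.05), Nid1 (−0.14 ± 0.03) and Lama5 (−0.13 ± 0.03). Lox, the enzyme that cross-links collagen and elastin, had 179 and 181 against 225 and 213 CPM (−0.28 ± 0.04, adjusted p = 2.63e-07). It was among the 8 of 24 processing genes that fell, as were Bmp1 (−0.22 ± 0.04), the procollagen C-proteinase, and Pcolce (−0.14 ± 0.03), its enhancer. Mia3, which loads procollagen into export vesicles at the endoplasmic reticulum, rose (0.29 ± 0.04, adjusted p = 1.99e-06). The counts of falls were sensitive to the library set: for fibres and proteoglycans they were 7 without CK1a_OV replicate 2, 6 without OV_control replicate 1, 5 without OV_control replicate 2 and 4 with DESeq2 (2 had no adjusted p there), and for collagen processing 4 without CK1a_OV replicate 2, 4 without OV_control replicate 1 and 3 with DESeq2.

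**Figure D3:**
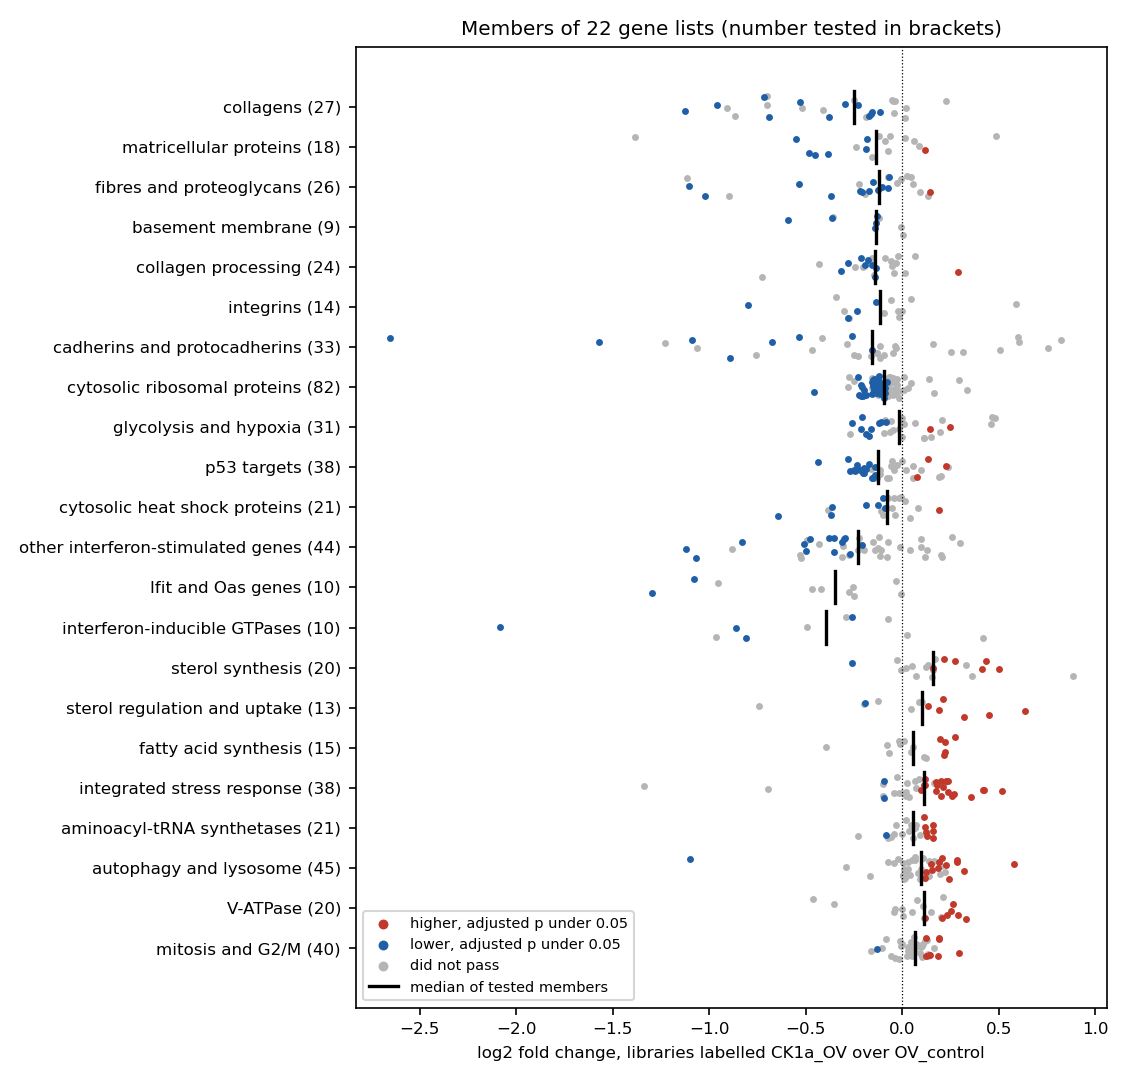
Log2 fold changes, CK1a_OV over OV_control, of the tested members of 22 gene lists (1 point per gene; red called higher, blue called lower, grey not passed; black bars mark the list medians). The called collagens all lie below 0 and the called V-ATPase genes all above 0, with the collagen median at −0.25.

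Adhesion receptors and proteases gave fewer calls. Of 14 integrin genes 4 fell, led by Itga3 (−0.23 ± 0.03) and Itga6 (−0.28 ± 0.04), which encode laminin-binding α chains (2 with DESeq2). Adamts5, an aggrecan-cleaving protease, had 25.9 and 28.2 CPM against 38.4 and 38.2 CPM in the controls (−0.50 ± 0.09, adjusted p = 2.48e-05). It was among 6 falls in 32 proteases and inhibitors, against 3 without CK1a_OV replicate 2 and 2 with DESeq2. Of 24 genes known to respond to TGF-β, SRF or YAP, 8 fell, with Acta2, Flna (−0.14 ± 0.02), an actin cross-linker, and Amotl2 (−0.16 ± 0.03) among them (3 without OV_control replicate 1 and 4 with DESeq2). The large cadherins Fat1 (−0.26 ± 0.03), Fat4 (−0.54 ± 0.11) and Dchs2 (−1.09 ± 0.14) fell, among 8 of 33 cadherin genes, a count that was 4 without CK1a_OV replicate 1, 5 without CK1a_OV replicate 2, 3 without OV_control replicate 1, 4 without OV_control replicate 2 and 2 with DESeq2 (5 had no adjusted p there).

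Receptors of growth factors and developmental signals also held several falls. Igf1r, the receptor for insulin-like growth factors, had 134 and 135 against 157 and 164 CPM (−0.26 ± 0.04, adjusted p = 1.07e-05), and the hepatocyte growth factor receptor Met had 75.7 and 80.0 against 95.9 and 99 CPM (−0.32 ± 0.05). Ddr1, a receptor tyrosine kinase for collagen, fell by 0.32 ± 0.03, as did Gas6, a ligand of the TAM receptors (−0.39 ± 0.07). In all, 6 of 29 receptor and ligand genes fell and 2 rose. The rises were Hbegf (0.21 ± 0.05), an EGF receptor ligand, which lost its call without CK1a_OV replicate 1 (adjusted p = 0.0544), and the TAM receptor Mertk (0.66 ± 0.19), which lost it without OV_control replicate 1 (adjusted p = 0.260). Mertk is also a macrophage marker, and it was the one tested marker of that list that passed. Notch1 had 89.8 and 93.8 against 125 and 126 CPM (−0.45 ± 0.05, adjusted p = 1.89e-10). Hedgehog genes had a median of −0.15, with 3 of 11 called lower, Gli2, Sufu and Gas1. Gli2 lost its call without CK1a_OV replicate 1 or OV_control replicate 1 (adjusted p = 0.0870 to 0.124), Sufu without CK1a_OV replicate 2, OV_control replicate 1 or OV_control replicate 2 (adjusted p = 0.0631 to 0.284), and Gas1 without any 1 of the 4 libraries (adjusted p = 0.0801 to 0.189), and 1 Hedgehog gene was called lower with the GC offset.

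Genes of the cytosolic ribosome were lower as a group by small amounts. Of 82 genes 37 fell and none rose (0 at an unadjusted p under 0.05 and 0 with DESeq2; 2 rose with the replicate block, 3 without OV_control replicate 2, and 1 each without CK1a_OV replicate 1 and OV_control replicate 1), and the median was −0.10. Rps4x, a small-subunit protein, had 738 and 740.3 against 864 and 868 CPM (−0.23 ± 0.03, adjusted p = 8.04e-10), and Rpl18 of the large subunit had 612 and 587 against 676 and 701 CPM (−0.20 ± 0.03). The groups did not overlap for either, and 50 of the 82 genes had both CK1a_OV libraries below both controls. Processed pseudogenes share much of their sequence with ribosomal protein genes, so single members are uncertain. Elongation factors fell with them, as Eef1g (−0.18 ± 0.02) and Eef1a1 (−0.09 ± 0.02), of which Eef1a1 delivers aminoacyl-tRNA to the ribosome. Of 55 translation factors 7 fell (12.7%) and 4 rose (7.3%; 1 rise with the GC offset). Their median level was 162 CPM, and of all genes tested above 102 CPM 16.3% fell and 12.4% rose, so the list held no excess of calls for its level. Mitochondrial ribosomal proteins gave 2 rises and 3 falls in 77 genes, with a median of −0.01. Without CK1a_OV replicate 2, 24 cytosolic ribosomal protein genes were called lower.

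Some glycolysis enzymes were lower, at several successive steps. Of 31 glycolysis and hypoxia-response genes 9 fell, all of them enzymes of glycolysis or its lactate branch. The median of the list was −0.02, and 14 of the 31 genes had a fold change above 0. Hk1 (−0.19 ± 0.04), Gpi1 (−0.17 ± 0.03), Pfkl (−0.26 ± 0.04), Pgk1 (−0.12 ± 0.03), Eno1 (−0.21 ± 0.02) and Pkm (−0.21 ± 0.02) are 6 of the 9 falls, in the order of the pathway from hexokinase to pyruvate kinase. Eno1 had 1484 and 1497 against 1726 and 1716 CPM, and Pkm had 2082 and 2037 against 2399 and 2381 CPM, with no overlap. Lactate dehydrogenase A, Ldha, had 1057 and 1049.8 against 1189 and 1165 CPM (−0.16 ± 0.02, adjusted p = 1.25e-06). The muscle enolase Eno3 is not in the list and was picked by its adjusted p-value. It fell more than any of these enzymes, from 106 and 106 CPM to 70.0 and 64.1 CPM (−0.67 ± 0.05, adjusted p = 2.49e-14). The hypoxia-response genes Bnip3l and Ndrg1 rose (0.14 ± 0.04 and 0.25 ± 0.08), but Bnip3l lost its call without CK1a_OV replicate 1 or OV_control replicate 1 (adjusted p = 0.193 to 0.230), and Ndrg1 without CK1a_OV replicate 2, OV_control replicate 1 or OV_control replicate 2 (adjusted p = 0.0547 to 0.353).

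**Figure D4:**
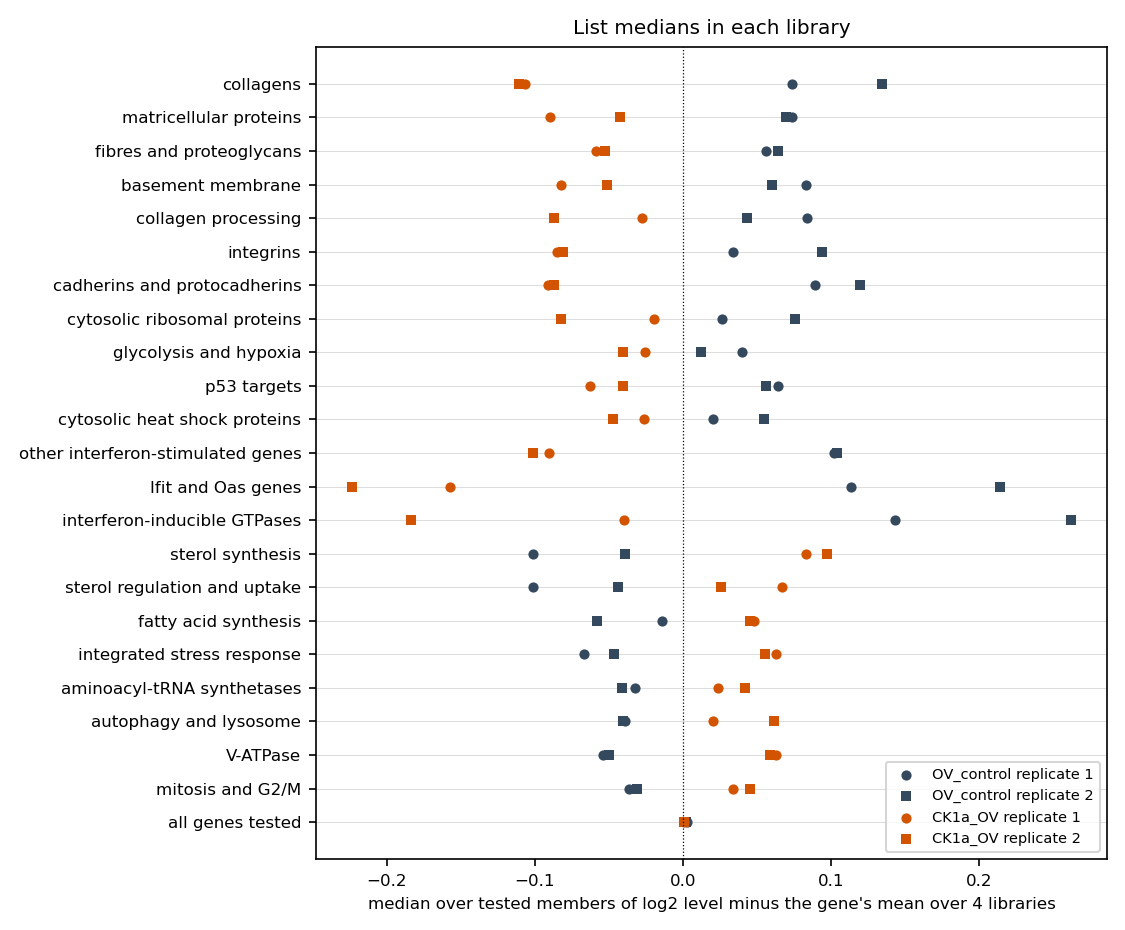
Median over each list's tested members of the log2 level minus the gene's mean over the 4 libraries (x axis), 1 point per library for 22 lists and all genes tested. For each list shown both CK1a_OV points (orange) lie on one side of both control points (dark). The medians of collagens were −0.11 and −0.11 against 0.07 and 0.13. All genes tested were also separated, at 0.0006 and 0.0008 against 0.0025 and 0.0021, so separation alone does not mark a list. Lists whose medians overlapped, such as immediate early, respiratory chain and proteasome genes, are not shown.

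Some of the genes that interferon induces fell. With the 4 libraries, none of the 3 lists of them held a rise (0, 0 and 2 genes at an unadjusted p under 0.05 for the Ifit and Oas genes, the GTPases and the others, and 0 with DESeq2). Rises were rare among all genes of low level. Up to 2.75 CPM, 0.4% rose and 3.0% fell (median −0.14), and from there to 17.3 CPM 1.6% and 5.7% (median −0.03). The GTPases had a median level of 1.24 CPM and the Ifit and Oas genes of 4.78 CPM, so their lack of rises is near those shares. The third list held 2 rises with the GC offset, 2 without CK1a_OV replicate 2 and 1 with library totals. Of 44 interferon-stimulated genes outside the Ifit, Oas and GTPase families, 14 fell, with a median of −0.23. Lgals9, a galectin of immune regulation, had 126 and 122 against 155 and 162 CPM (−0.35 ± 0.04, adjusted p = 1.39e-08), and Bst2, the tetherin that holds budding virus on the cell surface, had 63.6 and 61.9 against 75.8 and 80.2 CPM (−0.31 ± 0.06). Both controls lay above both CK1a_OV libraries. Of 10 interferon-inducible GTPases 4 fell (median −0.39), and Igtp, a GTPase that acts on vacuoles of intracellular pathogens, had 4.33 and 3.97 against 7.60 and 7.49 CPM (−0.86 ± 0.20, adjusted p = 0.00163). Of 10 Ifit and Oas genes 2 fell, Oas2 and Oas3, sensors of double-stranded RNA (both had no adjusted p with DESeq2, and an unadjusted p there under 0.05). Oas3 had 2.67 and 2.79 against 5.63 and 5.91 CPM (−1.08 ± 0.23). Oas2 lost its call without OV_control replicate 2 (adjusted p = 0.0681). The 14 falls became 7 without OV_control replicate 2 and 6 with DESeq2 (4 had no adjusted p there), and the 4 GTPases became 2 without CK1a_OV replicate 1, 2 without OV_control replicate 1 and 0 with DESeq2, where 3 of them had no adjusted p and 4 an unadjusted p under 0.05.

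Components of the cGAS-STING pathway itself showed little difference. Of 21 genes tested 3 passed. Tmem173, which encodes STING, had 25.8 and 26.4 against 26.1 and 26.8 CPM (−0.02 ± 0.10, adjusted p = 0.938), and Irf3 had 26.2 and 28.9 against 28.1 and 30.2 CPM (−0.08 ± 0.09, adjusted p = 0.649). Neither passed. Cgas, the DNA sensor, had 57.9 and 57.3 against 49.0 and 50.9 CPM (0.21 ± 0.07, adjusted p = 0.0255), and Tbk1 had 56.3 and 57.2 against 50 and 49.5 CPM (0.19 ± 0.07, adjusted p = 0.0398). Both were called higher with the 4 libraries, but Cgas lost its call without any 1 of the 4 libraries (adjusted p = 0.0554 to 0.180), and Tbk1 without any 1 of the 4 libraries (adjusted p = 0.0921 to 0.171), and neither was called with the GC offset. Nlrc3, a cytosolic protein known to restrain STING, fell and had 4.27 and 4.09 against 7.95 and 7.38 CPM (−0.87 ± 0.20, adjusted p = 0.00127). Among 10 genes that clear nucleic acids, Samhd1, which degrades deoxynucleotides, was the one that passed, at 256 and 256 against 294 and 293 CPM (−0.20 ± 0.03, adjusted p = 2.48e-05).

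Other pathways known for casein kinases of this family held 3 calls in 17 genes of the β-catenin destruction complex and 2 in 11 Wnt targets and TCF factors, where 13.3% of all genes were called. In the β-catenin destruction complex, Dvl2 rose (0.23 ± 0.06) and Ctnnb1 and Apc2 fell (−0.09 ± 0.03 and −0.33 ± 0.10). Ctnnb1 encodes β-catenin, and it lost its call without CK1a_OV replicate 1, OV_control replicate 1 or OV_control replicate 2 (adjusted p = 0.0692 to 0.396). Apc2 lost its call without CK1a_OV replicate 1, CK1a_OV replicate 2 or OV_control replicate 1 (adjusted p = 0.0672 to 0.274), and Dvl2 without OV_control replicate 2 (adjusted p = 0.119). Of the Wnt targets and TCF factors, Myc rose (0.11 ± 0.03) and Ccnd1, cyclin D1, fell (−0.09 ± 0.03). The call of Myc was lost without OV_control replicate 2 (adjusted p = 0.0607), and that of Ccnd1 without OV_control replicate 1 or OV_control replicate 2 (adjusted p = 0.0564 to 0.192). Bcl10, a scaffold of NF-κB signalling in lymphocytes, was the 1 of 9 CK1 partner genes that passed (0.17 ± 0.05), a call that was lost without CK1a_OV replicate 1, OV_control replicate 1 or OV_control replicate 2 (adjusted p = 0.0680 to 0.187). Of 16 clock genes, Clock was called higher (0.13 ± 0.04) and Tef lower (−0.21 ± 0.05), and Clock lost its call without CK1a_OV replicate 2, OV_control replicate 1 or OV_control replicate 2 (adjusted p = 0.0662 to 0.108).

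Sterol synthesis was among the groups with more rises than falls. Of 20 genes of the cholesterol pathway 6 rose and 1 fell, with a median of 0.16. Msmo1, a sterol methyl oxidase, had 76.6 and 82.3 against 55.6 and 56.8 CPM (0.50 ± 0.06, adjusted p = 5.11e-09), next to Cyp51, the lanosterol demethylase, at 121 and 129 against 95.7 and 89.6 CPM (0.43 ± 0.05). Both were higher in both libraries than in either control. Of 13 regulators and carriers 6 rose, including Insig1 (0.64 ± 0.10), which retains the SREBP processing complex, Stard4 (0.32 ± 0.06), a sterol carrier, and Npc1 (0.21 ± 0.05), which moves cholesterol out of lysosomes. Its lysosomal partner Npc2 fell (−0.19 ± 0.04, adjusted p = 0.000111). Among 15 fatty acid genes 5 rose and none fell (1 at an unadjusted p under 0.05 and 0 with DESeq2), led by the desaturases Scd2, Fads1 (0.22 ± 0.04) and Scd1 (0.22 ± 0.04). With DESeq2 the rises were 2 regulators and 3 fatty acid genes, and without CK1a_OV replicate 1 they were 3 fatty acid genes.

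The integrated stress response, in which the factor ATF4 raises genes of amino acid supply, held many more rises than falls. Of 38 genes tested 19 rose and 2 fell, with a median of 0.12 (10 rises with DESeq2). ATF4 pairs with C/EBP factors at an element read here as TGATGNAA, searched on both strands of the 250 bases before each gene's start. Promoters came from RefSeq tables of build GRCm38.p6 (mm10), which matched 9850 of the tested genes. The letters occurred in 8 of 32 matched members, against 2.33% of tested genes with a promoter and 3.45% of all 32851 promoters. They occurred in 4 of the 17 matched members that rose (23.5%) and in 4 of the 15 that did not (26.7%). A match describes letters only and names no bound factor. The letters TCACNCCAC of the sterol regulatory element were searched in the same way. They occurred in 1 of 15 matched sterol synthesis genes, 0 of 10 sterol regulators and carriers and 0 of 12 fatty acid genes (1.19% of tested genes). Of the matched members of these lists that rose, 0 of 4, 0 of 3 and 0 of 2 held them. Windows around the match are shown for 3 members that rose, for the synthetase Aars, and for Chac1 and Nupr1, which were not called, to let their letters be compared. Capitals mark the match, which reads TTGCATCA where it lies on the strand opposite the gene, and all are 5′ to 3′ on the gene's strand. Slc7a11 has a second match, on the opposite strand 47 bases before the start, which stands in small letters in its window.
Asns: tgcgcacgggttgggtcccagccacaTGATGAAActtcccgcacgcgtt
Atf3: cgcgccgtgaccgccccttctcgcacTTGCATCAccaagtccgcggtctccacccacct
Slc7a11: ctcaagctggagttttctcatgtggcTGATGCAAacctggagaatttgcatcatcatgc
Aars: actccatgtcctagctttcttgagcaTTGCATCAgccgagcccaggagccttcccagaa
Chac1: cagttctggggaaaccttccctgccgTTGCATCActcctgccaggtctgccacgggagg
Nupr1: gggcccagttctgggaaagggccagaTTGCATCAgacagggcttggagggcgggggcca

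These windows lie at chr6:7693210-7693258 (minus strand, Asns), chr1:191183411-191183469 (minus, Atf3), chr3:50443647-50443705 (minus, Slc7a11), chr8:111033704-111033762 (plus, Aars), chr2:119351023-119351081 (plus, Chac1) and chr7:126625548-126625606 (minus, Nupr1), all before the gene's start in the RefSeq table, which can differ from that in GENCODE M21. Asns, which makes asparagine, had 270.1 and 284 CPM in the CK1a_OV libraries and 234 and 237 CPM in the controls (0.24 ± 0.04, adjusted p = 2.1e-06). Atf3, a stress-induced factor, had 106 and 102 against 75.7 and 79.5 CPM (0.42 ± 0.05, adjusted p = 1.59e-08), and the cystine importer Slc7a11 had 17.6 and 18.5 against 12.1 and 13.2 CPM (0.52 ± 0.12). In these 3 genes both CK1a_OV libraries lay above both controls. Trib3, a pseudokinase that ATF4 induces, rose by 0.42 ± 0.07 and Mthfd2, of mitochondrial one-carbon metabolism, by 0.23 ± 0.04. Chac1, which degrades glutathione, had 36.9 and 38.3 against 38.3 and 35.7 CPM and did not pass (0.02 ± 0.08, adjusted p = 0.90), nor did Nupr1, at 57.0 and 52.0 against 47.7 and 49.5 CPM (0.17 ± 0.07, adjusted p = 0.10). The 2 falls were Phgdh, which starts serine synthesis (−0.10 ± 0.03), and the secreted stress protein Gdf15 (−0.09 ± 0.03). Phgdh lost its call without OV_control replicate 1 or OV_control replicate 2 (adjusted p = 0.0592 to 0.10), and Gdf15 without CK1a_OV replicate 2, OV_control replicate 1 or OV_control replicate 2 (adjusted p = 0.106 to 0.239), and neither was called with the GC offset.

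Among 21 aminoacyl-tRNA synthetases, many of which ATF4 controls, 7 rose and 1 fell. Aars, for alanine, had 551 and 559 against 513 and 482 CPM (0.16 ± 0.03, adjusted p = 8.92e-05), and Sars (0.13 ± 0.03) and Yars (0.16 ± 0.04), for serine and tyrosine, rose as well. Kars, for lysine, was the fall (−0.08 ± 0.03), a call that was lost without CK1a_OV replicate 2, OV_control replicate 1 or OV_control replicate 2 (adjusted p = 0.0561 to 0.508). The 7 rises became 4 without OV_control replicate 1, 4 without OV_control replicate 2 and 4 with DESeq2. In the endoplasmic reticulum, Hspa5, the chaperone BiP, had 928 and 941 against 837 and 845 CPM (0.15 ± 0.02, adjusted p = 8.52e-06) and was 1 of 4 rises in 25 genes of the unfolded protein response (against 2 without CK1a_OV replicate 2, 2 without OV_control replicate 1 and 2 with DESeq2). Pdia6, a disulphide isomerase of the same list, fell (−0.14 ± 0.03, adjusted p = 0.00114), but not without OV_control replicate 2 (adjusted p = 0.0602). Among cytosolic chaperones, of 21 heat shock genes 7 fell and 1 rose. Hspa8, the constitutive HSP70, had 551 and 555 against 635 and 626 CPM (−0.19 ± 0.03, adjusted p = 7.72e-07), and Hsp90ab1 (−0.12 ± 0.02) and Cryab (−0.37 ± 0.05) fell too. The rise was Hspa4l (0.19 ± 0.06), lost without CK1a_OV replicate 1 or OV_control replicate 1 (adjusted p = 0.106 to 0.543).

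Lysosomal genes rose in part, among them those of the vacuolar H+-ATPase (V-ATPase), the proton pump that acidifies lysosomes. Of 20 of its subunit and accessory genes 7 rose and none fell (0 at an unadjusted p under 0.05 and 0 with DESeq2), with a median of 0.11. The membrane-sector subunits Atp6v0d1 and Atp6v0b had 119 and 121 against 91.8 and 98.8 CPM (0.33 ± 0.05, adjusted p = 1.15e-06) and 110.2 and 114 against 93.1 and 94.2 CPM (0.26 ± 0.05). Atp6v1h, the regulatory subunit of the catalytic sector, had 94.3 and 90.7 against 74.4 and 77.2 CPM (0.29 ± 0.05), and the accessory protein Atp6ap2 had 121 and 126 against 103 and 108 CPM (0.23 ± 0.05). The groups did not overlap for these 4 genes. The catalytic subunit Atp6v1a was not among them, with 238 and 236 against 239.5 and 248 CPM (−0.04 ± 0.04, adjusted p = 0.554). Of 45 autophagy and lysosome genes 13 rose and 1 fell. Sqstm1, the autophagy receptor p62, had 537 and 526 against 464 and 446 CPM (0.22 ± 0.03, adjusted p = 7.48e-08), and Lamp2 (0.15 ± 0.03), a lysosomal membrane protein, and Fnip1 (0.28 ± 0.06), a regulator of the RAG GTPases, rose with it. The fall was Atg9b, at 4.33 and 5.34 against 9.17 and 11.6 CPM (−1.10 ± 0.18). The count of 13 rises was 8 without CK1a_OV replicate 1, 8 without CK1a_OV replicate 2, 7 without OV_control replicate 1, 8 without OV_control replicate 2 and 6 with DESeq2. The letters TCACGTGA, a palindrome known as the core of the lysosomal CLEAR element, occurred in 5 of 37 matched autophagy and lysosome promoters (13.5%; 1.78% of tested genes), in 2 of the 12 members that rose and 3 of the 25 that did not, and in 1 of 15 matched V-ATPase promoters.

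Targets of p53, the factor that CK1α and MDM2 hold in check, were mostly lower where they changed. Of 38 listed genes 17 fell and 3 rose, with a median of −0.12. Ccng1, cyclin G1, had 630.1 and 614 against 705 and 726 CPM (−0.20 ± 0.03, adjusted p = 1.13e-07), and Mdm2, the ubiquitin ligase of p53, had 958 and 949.7 against 1054 and 1074 CPM (−0.16 ± 0.02). Trp53inp1, a stress protein that p53 induces, fell by 0.24 ± 0.04. In each of these the controls were above both CK1a_OV libraries. The rises included Gadd45b and Rrm2b (0.13 ± 0.04 and 0.23 ± 0.07), which lost the call without any 1 of the 4 libraries (adjusted p = 0.0714 to 0.234) and without any 1 of the 4 libraries (adjusted p = 0.0559 to 0.122). Genes of mitosis had 8 rises and 1 fall in 40, with Bub1 (0.19 ± 0.04), Tpx2 (0.14 ± 0.03), Sgo1 (0.18 ± 0.04) and the proliferation marker Mki67 (0.12 ± 0.03) above the controls. The count of mitotic rises was 5 without OV_control replicate 2 and 3 with DESeq2, and 4 with the GC offset. DNA replication genes had 4 rises and 4 falls in 46 (1 rise with the GC offset, 2 falls with the replicate block, and 7 rises and 1 fall when scaled by library totals). Their rises were 0 without CK1a_OV replicate 2, 1 without OV_control replicate 1, 1 without OV_control replicate 2 and 0 with DESeq2, and their falls 1 without CK1a_OV replicate 1, 0 without OV_control replicate 1, 1 without OV_control replicate 2 and 0 with DESeq2.

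Immediate early genes moved both ways, and NF-κB targets rose in part. Of 33 immediate early genes 5 rose, Egr1, Ier2, Maff, Junb and Jun, and 4 fell. The median was 0.04, and the medians of the list in each library overlapped between groups. Ier2 had 232 and 220.3 against 194 and 204 CPM (0.18 ± 0.04, adjusted p = 0.000517), and Ier5, a gene of the same family, fell at 280.1 and 280.4 against 317 and 325 CPM (−0.20 ± 0.03, adjusted p = 1.74e-05). Jun lost its call without any 1 of the 4 libraries (adjusted p = 0.0569 to 0.172), and the 4 falls became 2 without CK1a_OV replicate 1, 2 without OV_control replicate 1 and 1 with DESeq2. Chemokines did not move together: Cxcl1, which draws neutrophils, had 219.7 and 219.8 against 176 and 191 CPM (0.26 ± 0.04, adjusted p = 1.99e-06), and Ccl2, which draws monocytes, had 218 and 226 against 188 and 192 CPM (0.22 ± 0.04). Cx3cl1, a membrane-bound chemokine, fell instead, at 111 and 118 against 143 and 144 CPM (−0.33 ± 0.04, adjusted p = 1.96e-07), as did Cxcl12 (−0.38 ± 0.08). The NF-κB subunit Relb rose (0.33 ± 0.06), and the whole list of 35 had 8 rises and 3 falls (5 without OV_control replicate 2 and 5 with DESeq2). Of 19 NRF2 antioxidant genes 3 rose, Slc7a11, Fth1 (0.11 ± 0.02), the ferritin heavy chain, and Hmox1 (0.17 ± 0.04), which lost its call without OV_control replicate 1 (adjusted p = 0.0941), and 3 fell (1 without CK1a_OV replicate 2, 0 without OV_control replicate 1, 1 without OV_control replicate 2 and 0 with DESeq2, and 1 with library totals).

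Zinc finger and splicing factor genes, whose GC content is low, were read beside the GC offset. Of 322 genes named Zfp, most of them C2H2 zinc finger factors, 20 rose and 6 fell, with a median of 0.06 and a median GC content of 43.7%. The rises were 6.2% of the family, near the 5.8% of all genes and below the 9.9% of the lowest GC quintile. In 108 of the 322 (33.5%) both CK1a_OV libraries were above both controls and in 43 both were below. In the lowest GC quintile both were above in 40.8% of genes. Zfp367 had 134 and 128 against 106 and 107 CPM (0.31 ± 0.05, adjusted p = 1.95e-06), and Zfp91 had 147 and 149 against 123 and 124 CPM (0.27 ± 0.04). The 20 rises became 16 with the GC offset, and 11 without CK1a_OV replicate 1 and 6 with DESeq2 (4 had no adjusted p there). Splicing factors had 9 rises and 5 falls in 50, but 2 rises and 5 falls with the GC offset, so the excess of rises did not hold there (3 without CK1a_OV replicate 1, 3 without OV_control replicate 1 and 2 with DESeq2, and 4 with the replicate block). Srsf7 rose (0.19 ± 0.04, adjusted p = 0.000511) and Srsf9 fell (−0.20 ± 0.04, adjusted p = 0.00101), and 7 of the 10 Srsf genes had both CK1a_OV libraries above both controls. The 17 histone lysine demethylase genes named Kdm, looked at after their values were seen, had both CK1a_OV libraries above both controls in 11 and below both in none, while 2 were called, Kdm4a (0.16 ± 0.05) and Kdm6b (0.14 ± 0.05). Kdm4a lost its call without CK1a_OV replicate 1 or OV_control replicate 2 (adjusted p = 0.0554 to 0.145), and Kdm6b without any 1 of the 4 libraries (adjusted p = 0.0739 to 0.187).

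Dynlt1c, a dynein light chain gene, had the largest rise among genes above 4 CPM with an established symbol and separated groups, at 18.0 and 14.8 against 3.42 and 4.92 CPM (1.98 ± 0.17, adjusted p = 4.03e-13). It is 1 of 4 near-identical copies in a stretch of chromosome 17 (Dynlt1c at 6601671 to 6609774, mm10), between which reads can be split, so the change of a single copy is uncertain. Dynlt1a moved the opposite way, at 3.56 and 5.04 against 7.43 and 8.55 CPM (−0.89 ± 0.20, adjusted p = 0.00111), and Dynlt1b and Dynlt1f did not pass. Summed over the 4 copies the level was 43.5 and 42.1 CPM against 31.9 and 35.5 CPM on the TMM scale, a ratio of 1.27. In other tubulin and dynein genes, Tubb4b, a β-tubulin, fell (−0.23 ± 0.03, adjusted p = 3.1e-06), as did Tubb3 (−0.49 ± 0.10), a β-tubulin used as a neuronal marker. Among 33 such genes 7 fell and 2 rose (4 without OV_control replicate 1 and 3 with DESeq2, where 2 had no adjusted p). Muscle and neural markers, in which Tubb3 is counted, summed to 871 and 855 CPM of the library totals against 941 and 947 CPM, with Des, Tnnt2, Nes and Tubb3 called lower. Des lost its call without CK1a_OV replicate 1 or OV_control replicate 2 (adjusted p = 0.135 to 0.243).

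The changes were set beside those of the siRNA libraries, where Csnk1a1 transcripts were lower (−0.96 ± 0.05) and 28.3% of 14832 genes tested were called higher and 26.4% lower. The siRNA comparison has its own controls and shares no library with the one described here. The 2 control sets were unlike at baseline. Eif3h had 3483 and 3489 CPM in the OV_control libraries and 212 and 215 CPM in the knockdown controls. Col6a3 had 5.16 and 5.85 against 689 and 678 CPM. The siRNA set also held 197016 to 271457 mitochondrially encoded counts per library, against 0 here. Its files list 54532 features, against 55401 here, so the 2 sets were not counted over the same features. Whether the 0 reflects the cells or the counting was not tested. The part of these differences in the opposite calls below was not tested. Of the 781 genes higher in the CK1a_OV libraries and tested in both, 38.7% were higher and 32.0% lower with siRNA. Of the 930 lower genes, 35.4% were higher and 30.8% lower with siRNA, and of 10628 genes not called, 30.5% and 25.6%. The difference between both effects was tested as a contrast in a joint fit, in which 36.8% of 16253 genes passed, 18.1% above 0 and 18.7% below. An estimate above 0 means a more positive change with overexpression, and scaling in the joint fit keeps it from being the exact subtraction of both fold changes.

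Several lists nonetheless held opposite calls in the 2 comparisons. With siRNA alone, 19 of 19 tested GTPases and 40 of 45 other interferon-stimulated genes were higher. Lower with siRNA were 29 of 31 immediate early genes, 14 of 18 V-ATPase genes and 25 of 36 stress response genes. So were 22 of 26 unfolded protein response genes and 24 of 45 autophagy and lysosome genes. In such lists a call here in the other direction was usually an opposite call. All 10 interferon-inducible GTPases had a difference below 0 that passed, and 4 were lower in the CK1a_OV libraries and higher with siRNA. Igtp changed by 4.68 ± 0.07 with siRNA, a difference of −5.50 ± 0.17, adjusted p = 5.21e-42. Of 41 other interferon-stimulated genes tested in both comparisons, 13 were lower here and higher with siRNA. Egr1, raised in the CK1a_OV libraries, changed by −3.08 ± 0.05 with siRNA (difference 3.64 ± 0.06, adjusted p = 7.49e-58). Of 31 immediate early genes in both, 5 were higher here and lower with siRNA, and 4 were lower in both. Of 18 V-ATPase genes in both, 7 were higher here and lower with siRNA. Atp6v1h changed by −0.84 ± 0.05 there (difference 1.17 ± 0.08, adjusted p = 1.61e-22). Of 36 stress response genes 13, of 25 unfolded protein response genes 4, and of 45 autophagy and lysosome genes 10 were higher here and lower with siRNA.

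Opposite calls were also found among glycolysis genes, of which 8 of 31 were lower in the CK1a_OV libraries and higher with siRNA. With siRNA alone, 23 of the 31 were higher. Pkm changed by 0.58 ± 0.04 with siRNA (difference −0.75 ± 0.05, adjusted p = 4.93e-21), and Vim, the filament gene, by 0.44 ± 0.04 (difference −0.71 ± 0.04, adjusted p = 8.89e-24). Other calls were the same in both comparisons. Of 19 sterol synthesis genes 16 were higher with siRNA and 5 in both. Scd2 rose more with siRNA (1.33 ± 0.05; difference −1.06 ± 0.05, adjusted p = 2.55e-28). Of 82 ribosomal protein genes 23 were lower in both and 7 went opposite ways, and Rps4x changed by −0.19 ± 0.04 with siRNA, with a difference of 0.00 ± 0.05, adjusted p = 1.00. Of 40 mitosis genes 25 were higher with siRNA and 6 in both.

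**Figure D5:**
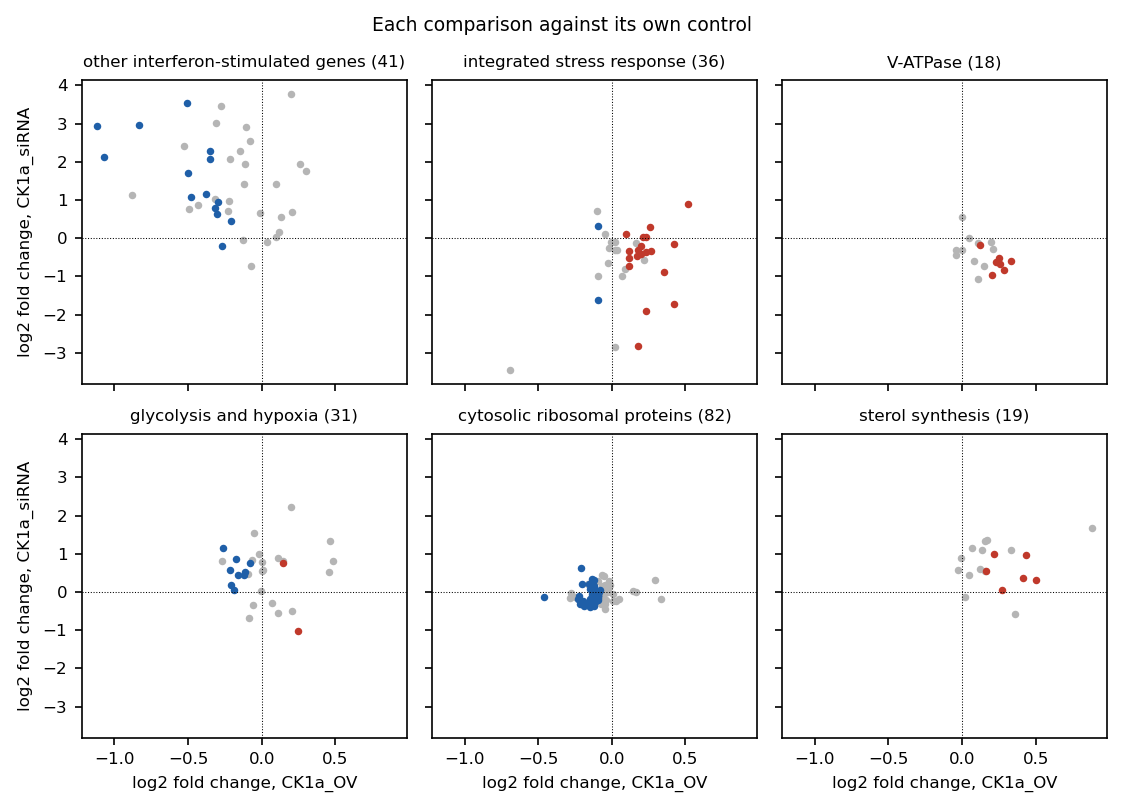
Log2 fold changes in the CK1a_OV comparison (x axis) and with CK1a siRNA (y axis), each against its own control, for the genes of 6 lists tested in both (1 point per gene; red called higher, blue called lower in the CK1a_OV comparison, grey neither). The 13 interferon-stimulated genes with opposite calls lie upper left, the 7 V-ATPase genes lower right, and the 5 sterol synthesis genes higher in both upper right.

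Some lists held calls at or near the share of all genes, 13.3% in either direction. The proteasome had 1 rise and 3 falls in 34 genes (falls were 5 with the GC offset, 7 without CK1a_OV replicate 1, 1 without CK1a_OV replicate 2, 1 without OV_control replicate 1 and 1 with DESeq2), and Psmd2 and Psmd4, of its regulatory particle, went opposite ways (−0.11 ± 0.03 and 0.12 ± 0.04). Psmd2 lost its call without OV_control replicate 1 (adjusted p = 0.121), and Psmd4 without CK1a_OV replicate 1 or OV_control replicate 1 (adjusted p = 0.236 to 0.377). Nuclear-encoded respiratory chain genes had 10 falls and 1 rise in 76, with Ndufa9 (−0.28 ± 0.06) of complex I and Atp5g1 (−0.25 ± 0.05) of the ATP synthase among the falls (4 without CK1a_OV replicate 2, 6 without OV_control replicate 1 and 3 with DESeq2). None of the 4 Hox genes tested was called with edgeR, with DESeq2 or at an unadjusted p under 0.05. The imprinted gene Peg10 rose (0.26 ± 0.05, adjusted p = 0.00031), with 88.6 and 88.5 against 72.1 and 75.3 CPM, and was the 1 of 8 imprinted genes tested that passed. Among the Snhg genes, which host small nucleolar RNAs, 1 of 11 rose and 1 fell.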

How the data were processed

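Libraries were made from polyA+ RNA of MEF, with 2 libraries per group. Per the submitters' processing notes, the authors aligned reads with HISAT2 and assigned them to genes of mm10 with featureCounts, and the deposited files hold raw whole-number counts per gene. The versions, the annotation and whether counting used strand were not given in the sources used here, so overlapping and antisense genes may share reads, and near-identical copies are uncertain. The files of this comparison list 55401 features, with 0 mitochondrially encoded counts. Symbols and positions came from GENCODE M21 (mm10), where 260 features had none.

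Genes were filtered with filterByExpr, scaled by TMM factors and tested with edgeR 4.0.16 (R 4.3.3) on the 4 libraries, with no block, and p-values were adjusted over all 13958 genes. The SE of a log2 fold change is its size divided by the square root of F, which can be too small for low genes. The procedure was tested on simulated data in which every gene had the same spread, unlike real genes. Changes of 1.25-fold were recovered in 50% of genes for this comparison and in 12% for the difference between effects. False calls were 2.6% and 6.1% of the calls. Library sizes differed little and the common biological coefficient of variation was 0.0396. The counts of replicates differed by more than sampling noise (chi-square per degree of freedom of 2.88 and 2.46), so no library was counted as a copy. A single joint edgeR fit of the overexpression and siRNA libraries gave the differences between effects.

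The comparison, members and gene lists were chosen with earlier results of these data known, so counts over a list are descriptions and received no test. Genes are named from the CK1 and cGAS-STING lists, the 12 smallest adjusted p-values per direction at 10 CPM or more, the 8 of largest fold change in each direction from 4 CPM upwards, up to 4 called members per list with up to 2 that moved the other way (the most abundant members where none was called), and the Dynlt1 copies. Picks by adjusted p-value or fold change were limited to called genes with an established symbol and groups that did not overlap. Annexin, S100 and Kdm genes, and Pgk1, Pfkl, Hk1, Junb and Jun, were chosen after their values were seen. A few genes covered by this rule are not reported here. Alternatives were RLE factors, library totals, DESeq2 1.42.0, no filter, at least 1 CPM in 2 libraries, a replicate block, and leaving out each library. A per-library GC offset and a minimum of 10 CPM were chosen after seeing the data.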

Additional observations from a re-analysis of the deposited data

How the results depend on the processing

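DESeq2 called 607 genes (207 higher, 400 lower) against 1863 (807 higher, 1056 lower) with edgeR, and the cause was not tested. Leaving out each library in turn gave 1065 to 1478 calls, with 432 to 611 higher and 633 to 867 lower. Those fits hold 1 library in a group, which is assumed to vary like the other group. Library totals gave 978 higher and 948 lower, and the GC offset 582 higher and 1063 lower. With RLE factors, no filter and at least 1 CPM in 2 libraries, each count stayed within 1.5 times. Groups share only replicate numbers: deviations of same-numbered libraries correlated at 0.0039 over 9436 genes, with 2 pairs. With the replicate block 1768 genes were called (754 higher, 1014 lower), and 8 named genes lost their call. Named genes losing their call numbered 64 with DESeq2 (a further 28 called ones had no adjusted p there), 41 to 54 without 1 library, 29 with the GC offset, 10 with no filter, 7 with library totals and 0 with RLE factors. None changed direction while called. The difference from the siRNA effect was called for 5307 to 5986 genes over its alternatives. With n = 2 libraries per group and small effects, changes of low genes were not measured with precision.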

Other observations

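Larger falls were found among genes of low level. Genes picked by fold change came only from called genes whose groups did not overlap. Colec10, a collectin that recognises microbial sugars, had 2.49 and 2.37 CPM in the CK1a_OV libraries and 6.03 and 8.08 CPM in the controls (−1.53 ± 0.23, adjusted p = 2.45e-06). Inpp5d, the phosphatase SHIP1, had 5.82 and 4.21 against 10.2 and 11.4 CPM (−1.11 ± 0.18, adjusted p = 6.35e-06). Tnnt2, cardiac troponin T, had 9.38 and 7.06 against 16.4 and 14.4 CPM (−0.91 ± 0.15, adjusted p = 7.58e-06). The junction protein Plekha7 (−1.19 ± 0.24), the paralemmin Palm3 (−1.22 ± 0.22) and the linker histone gene Hist1h1c (−1.11 ± 0.23) fell as well. Zfp653, a zinc finger gene, rose, with 6.41 and 6.47 against 3.37 and 3.04 CPM (1.00 ± 0.22, adjusted p = 0.000885).

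By chromosome, calls of lower genes reached 12.1% on chromosome 19, where 60 of 497 genes fell and 34 rose, and on chromosome 15 66 of 550 genes fell and 36 rose. Median GC content was 51.5% on chromosome 19 and 51.9% on chromosome 15. With the GC offset, 55 and 57 genes were lower there.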
